A study of Mus musculus with 12 samples.

Results

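To examine how the insulin signalling pathway is expressed in the livers of offspring of exposed fathers, 9 core genes were followed in hepatic RNA-seq data: Insr, Irs1, Irs2, Pik3r1, Pik3ca, Akt1, Akt2, Foxo1 and Foxo3. They were chosen by gene symbol, as the backbone of the pathway from the receptor to its transcription factors, among 21683 genes in the deposited table. All 9 were present and all 9 passed the filter on low counts, which 12459 genes passed in all. The livers came from F1 male mice of WT genotype. The strain was C57BL/6J, from the published methods. F0 sires aged 8 weeks received corn oil (paternal control, 6 F1 livers) or dicyclohexyl phthalate, a plasticizer abbreviated DCHP (paternal DCHP, 6 F1 livers), by oral gavage for 4 weeks and were then mated with unexposed females. The offspring of both groups ate a high-fat diet from 3 weeks of age, for 9 weeks, and food was withheld for some hours before euthanasia. The sire and litter of each animal are not given, so p-values measure the spread between livers, some of which may be siblings. Whether any of these livers came from mice injected with insulin is not given either.

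Insulin binds its receptor, a tyrosine kinase, which phosphorylates the adaptor proteins IRS1 and IRS2. These recruit phosphoinositide 3-kinase (PI3K), its lipid product brings AKT kinases to the membrane, and active AKT phosphorylates FOXO transcription factors, which then leave the nucleus. In liver this lowers the genes of glucose production and raises those of lipid synthesis. Much of this signal is carried by phosphorylation, which RNA-seq does not measure.

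Livers of the paternal DCHP group did not differ from those of the paternal control group in any of the 9 core genes at the thresholds used, a Benjamini-Hochberg adjusted p under 0.1 over all tested genes with a fold change above 1.5. The largest fold change was that of Irs2, which stood at 22.6 ± 7.22 CPM (counts normalised to the scaled library size) in control livers and 43.8 ± 27.6 CPM in DCHP livers (mean ± SD, n = 6 each). Irs2 was the one core gene with an unadjusted p under 0.05 (edgeR adjusted p = 0.165). The other 8 had log2 fold changes between -0.06 for Akt2 and 0.33 for Irs1. Of all tested genes 1.28% were called, 159 in number, 120 higher and 39 lower. DESeq2 and limma-voom also called 0 of the 9. An adjusted p under 0.1 without regard to fold was reached by 0 of the 9 and by 3.84% of all tested genes, and an unadjusted p under 0.05 by 1 of the 9 and by 18.9% of all. None of the 9 had groups that did not overlap, against 2.16% of all tested genes. Log2 fold changes were positive for 8 of the 9, with a median of 0.11, while 51.5% of all tested genes were positive, with a median of 0.01. When each library's trend of counts on gene length and GC content was removed, 7 of the 9 were positive and the medians were 0.01 for the 9 genes and -0.02 for all. The median absolute log2 fold change was 0.11 for the 9 genes and 0.15 for all.

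The libraries held between 23794728 and 30445338 estimated counts. Hepatocyte markers summed to between 67784 and 91302 CPM per liver, and 5 of 8 pancreas markers had no count in any library. Alb alone averaged 46329 CPM in control and 48733 CPM in DCHP livers. Of the 8 hepatocyte markers 3 had positive and 5 negative log2 fold changes, and edgeR called 0. An unadjusted p under 0.05 was reached by 1 positive and 3 negative markers, against 18.9% of all tested genes. The groups did not overlap in Ttr (-0.29, edgeR adjusted p = 0.0675). Some DCHP livers stood apart in lists of other genes. DCHP 1 had the highest immediate-early sum (1981 CPM, against 173.8 to 505 CPM in the other 11 livers), DCHP 4 the highest acute-phase sum (14419 CPM, against 3037 to 4798 CPM) and DCHP 5 the highest sum of Kupffer cell markers (716 CPM, against 207 to 491 CPM). DCHP 5 was also highest in erythroid markers (387 CPM, against 145 to 231 CPM) and in the share of counts from mitochondrial genes (8.03%, against 5.22% to 6.98%). DCHP 6 had the highest sum of adipocyte markers (368 CPM, against 35.4 to 233 CPM). All 12 Kupffer cell markers and all 13 acute-phase genes had positive log2 fold changes, as did 11 of 12 immediate-early genes, of which 0, 5 and 5 were called by edgeR, with 4, 11 and 8 at an unadjusted p under 0.05. Of 12 tested circadian clock genes 4 had positive and 8 negative log2 fold changes. EdgeR called 1 of them, Dbp (-0.69 ± 0.19, SE, adjusted p = 0.0904). An unadjusted p under 0.05 was reached by 2 positive and 4 negative clock genes, against 18.9% of all tested genes. The part of this in the levels of the insulin pathway genes was not tested. Fold changes across tested genes rose with exonic length (Spearman rho 0.30 across 99.3% of tested genes, which are not independent). In bulk tissue, fewer cells of a type and less RNA per cell cannot be told apart.

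**Figure D1:**
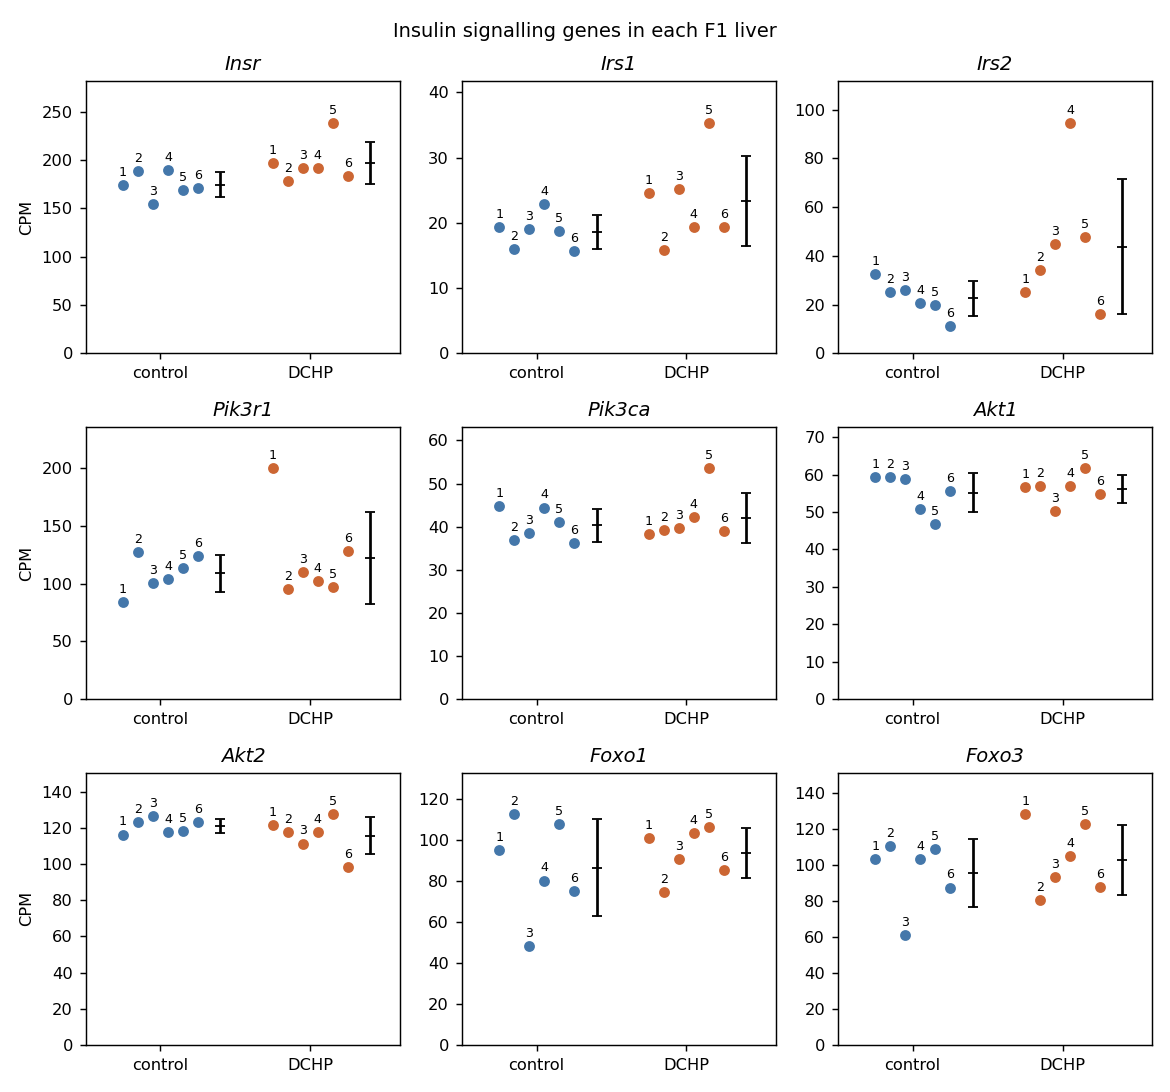
CPM of the 9 insulin signalling genes in each liver, blue for paternal control and orange for paternal DCHP, with the replicate number above each point and the mean ± SD of each group in black, each axis starting at 0. The groups overlap in all 9 genes, and single DCHP livers lie far above the rest in Irs2 (DCHP 4, 94.8 CPM), Pik3r1 (DCHP 1, 200.1 CPM) and Insr (DCHP 5, 239 CPM).

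Insr encodes the insulin receptor and is found on chromosome 8 (3122061 to 3279617, minus strand, GRCm38, as are all gene positions here). The gene has 21 exons in its longest transcript and 13746 exonic bases in all, the most of the 9 genes. Insr was at 174, 189, 154, 190.1, 169 and 171 CPM in control livers 1 to 6, and at 197, 178, 192, 192, 239 and 183 CPM in DCHP livers 1 to 6. The 4 DCHP livers 1, 3, 4 and 5 were above every control liver, and the other 2 lay within the control range. The log2 fold change was 0.17 ± 0.08 (SE, 95% confidence interval -0.0013 to 0.35, edgeR adjusted p = 0.266). With the length and GC trend removed, the log2 fold change of Insr was 0.01 (edgeR adjusted p = 0.924). DCHP 5, the liver with the highest Insr, also had the strongest rise of counts with exonic length (rho 0.39 across genes), while 3 control livers, 3, 5 and 6, had the strongest fall (rho -0.26 to -0.29). The part of the Kupffer, erythroid and mitochondrial values of DCHP 5 in its levels of Insr, Irs1 and Pik3ca was not tested.

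Irs1 and Irs2 encode the main adaptors of the receptor in liver. FOXO1 is known to activate Irs2, so that Irs2 is itself a gene that insulin lowers, and the Irs2 promoter is a known site of action of FOXO proteins and of SREBP-1 and TFE3, which bind E-boxes or related sites. The 250 bases before the start of both adaptor genes and of Igfbp1, a classical FOXO1 target, are shown because their matches to the insulin response motif lie among different neighbours. The sequences are from RefSeq (GRCm38.p6) and run 5′ to 3′ on the strand of the gene. Capitals mark CAAAACA, or TGTTTTG on the other strand, and the E-box CACGTG.
Irs2, chr8:11008930-11009179, minus strand: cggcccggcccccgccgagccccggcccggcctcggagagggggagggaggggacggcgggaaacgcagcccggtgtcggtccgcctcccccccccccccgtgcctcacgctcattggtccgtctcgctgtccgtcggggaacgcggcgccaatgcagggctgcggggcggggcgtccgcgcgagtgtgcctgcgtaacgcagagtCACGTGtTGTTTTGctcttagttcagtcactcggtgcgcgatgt
Irs1, chr1:82291440-82291689, minus strand: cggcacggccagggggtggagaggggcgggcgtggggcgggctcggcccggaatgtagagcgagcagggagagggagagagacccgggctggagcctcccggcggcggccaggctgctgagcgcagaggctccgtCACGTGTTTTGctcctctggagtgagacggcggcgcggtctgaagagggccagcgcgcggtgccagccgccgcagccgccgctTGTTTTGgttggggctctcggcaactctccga
Igfbp1, chr11:7197537-7197786, plus strand: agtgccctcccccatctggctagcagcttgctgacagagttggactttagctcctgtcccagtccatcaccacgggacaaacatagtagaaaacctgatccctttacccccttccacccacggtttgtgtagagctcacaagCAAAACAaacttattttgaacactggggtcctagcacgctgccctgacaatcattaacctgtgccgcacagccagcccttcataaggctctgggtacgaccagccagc
In Irs2 the E-box lies at -44 to -39 and the insulin response motif at -37 to -31, counted from the start, with -1 as the base before it. In Irs1 an insulin response motif at -111 to -105 shares 2 bases with an E-box at -115 to -110, and another lies at -32 to -26 with no E-box beside it. Igfbp1 holds the motif at -108 to -102 and no E-box. RefSeq places the start of Irs2 further upstream than the GENCODE position given with its levels.

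Both motifs were searched on both strands in windows from 250 bases before to 50 after each RefSeq start, which matched 8 of the 9 core genes (all but Insr). Of 32851 such windows of all genes, 6.28% hold CAAAACA, 7.15% hold CACGTG and 0.408% hold both, as Irs1 and Irs2 do. The forkhead motif GTAAACA, held by 3.65% of windows, was found in a window of Akt1 and in none of the other 7. These matches are letters in a window and no measure of binding.

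Irs2 (chromosome 8, 10984681 to 11008458, minus strand) was at 32.6, 25.2, 25.9, 20.8, 19.9 and 11.1 CPM in control livers 1 to 6. In DCHP livers 1 to 6 it was at 25.3, 34.2, 44.8, 94.8, 47.8 and 16.2 CPM. DCHP livers 2 to 5 lay above every control liver, whereas DCHP 1 and DCHP 6 lay among the controls. On the log2 scale the difference was 0.96 ± 0.35 (SE), or 1.94-fold (95% confidence interval 1.15 to 3.26). Its direction was the same under all 21 alternatives, with log2 fold changes from 0.59 without DCHP 4 to 1.13 without DCHP 6 and edgeR, DESeq2 or limma adjusted p from 0.0800 to 0.290. Irs2 was called only without DCHP 6, the left-out library that gave the most calls over all tested genes. DCHP 4 held both the highest Irs2 and the highest acute-phase sum, and the part of the acute-phase difference in the Irs2 result was not tested. Without DCHP 4 Irs2 was still the core gene with the highest log2 fold change.

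Irs2 also varied more between livers than most genes of its level, as its SD of log2 CPM within groups stood at the 99.0th percentile of the 1000 tested genes nearest in mean. Irs1 (chromosome 1, 82233101 to 82291416, minus strand) was at 19.3, 16.0, 19.0, 22.9, 18.8 and 15.6 CPM in control livers 1 to 6 and at 24.6, 15.9, 25.3, 19.4, 35.4 and 19.3 CPM in DCHP livers 1 to 6. DCHP livers 1, 3 and 5 lay above every control liver and the others within the control range. Irs1 had a log2 fold change of 0.33 ± 0.17 (SE, 95% confidence interval -0.03 to 0.68, edgeR adjusted p = 0.301). It was 0.17 without DCHP 5 and 0.20 with the length and GC trend removed. The ratio of Irs1 to Irs2 within a library, which does not depend on the scaling, was -0.22 ± 0.49 on the log2 scale in control livers and -0.74 ± 0.91 in DCHP livers (mean ± SD, n = 6 each). The difference of -0.52 was within the spread between livers (exact two-sided permutation p = 0.255, adjusted over 4 ratios p = 0.511, smallest possible p = 0.00216).

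**Figure D2:**
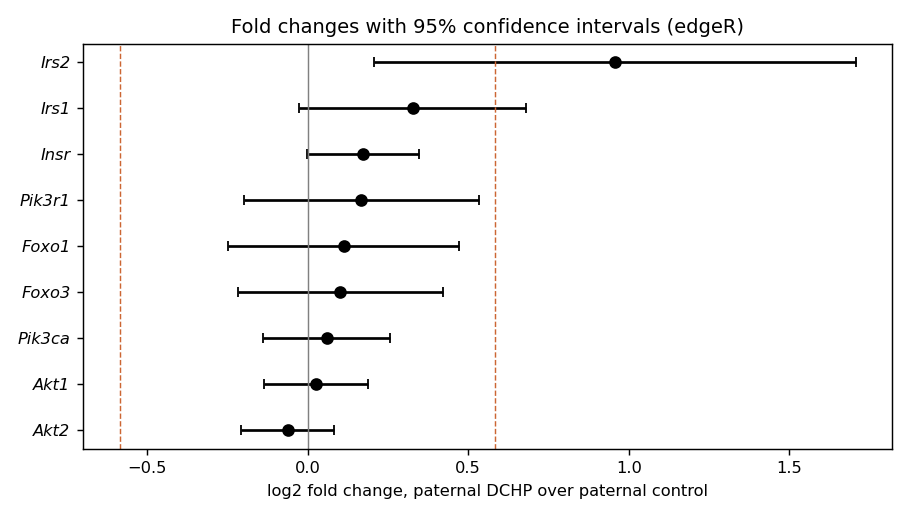
Log2 fold change of each core gene, paternal DCHP over paternal control (horizontal axis), with its 95% confidence interval from edgeR, and dashed lines at a fold change of 1.5 in either direction. Only the interval of Irs2 (0.21 to 1.71) leaves out 0, and Irs2 is the one gene whose estimate lies past the dashed line.

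Pik3r1 and Pik3ca encode the regulatory subunit p85α and the catalytic subunit p110α of PI3K. Pik3r1 (chromosome 13, 101680563 to 101768217, minus strand) was at 83.9, 127, 101, 104, 114 and 124 CPM in control livers 1 to 6 and at 200.1, 95.6, 110.2, 102, 97.0 and 129 CPM in DCHP livers 1 to 6. Apart from DCHP 1, which was the highest of the 12, the DCHP livers lay within the control range or, for DCHP 6, just above it. The log2 fold change was 0.17 ± 0.17 (SE, edgeR adjusted p = 0.619) and -0.03 without DCHP 1. DCHP 1 also had the highest immediate-early sum, and what that list has to do with Pik3r1 was not tested.

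Pik3ca (chromosome 3, 32397671 to 32468486, plus strand) varied little, from 36.1 to 44.8 CPM in control livers and from 38.3 to 42.1 CPM in 5 of the 6 DCHP livers, with DCHP 5 at 53.5 CPM. Its log2 fold change was 0.06 ± 0.09 (SE, 95% confidence interval -0.14 to 0.26, edgeR adjusted p = 0.760), and -0.05 with the length and GC trend removed. The log2 ratio of Pik3r1 to Pik3ca was 1.43 ± 0.34 in control and 1.5 ± 0.52 in DCHP livers (mean ± SD, n = 6 per group, exact two-sided permutation p = 0.788). Between livers, levels of the regulatory and the catalytic subunit had a negative correlation that did not pass (r = -0.50 over 12 livers, permutation p = 0.105, adjusted over 36 pairs p = 0.533; rho = -0.66, permutation p = 0.0240; r = -0.59 without the 2 livers farthest from the Pik3r1 median).

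Akt1 and Akt2 encode the AKT kinases of liver, of which AKT2 is the one best known for insulin action on glucose. Akt2 (chromosome 7, 27591552 to 27640826, plus strand) was at 116, 123, 127, 118, 118 and 123 CPM in control livers 1 to 6 and at 122, 118, 111, 118, 128 and 98.5 CPM in DCHP livers 1 to 6. DCHP 6 and DCHP 3 were below every control liver and DCHP 5 was above. On the log2 scale Akt2 had the smallest spread of the 9 genes in control livers (SD 0.05, with a level of 121 ± 3.98 CPM, SD, n = 6), and its log2 fold change of -0.06 ± 0.07 (SE, 95% confidence interval -0.21 to 0.08, edgeR adjusted p = 0.638) was the one negative value of the core.

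Akt1 (chromosome 12, 112653821 to 112674884, minus strand) ranged from 46.9 to 59.5 CPM in control livers and from 50.2 to 61.7 CPM in DCHP livers. Its log2 fold change was 0.03 ± 0.08 (SE, edgeR adjusted p = 0.873), and the 95% confidence interval, -0.13 to 0.19, was narrow. The log2 ratio of Akt1 to Akt2 was -1.14 ± 0.13 in control and -1.04 ± 0.10 in DCHP livers (mean ± SD, n = 6 per group, exact two-sided permutation p = 0.193, adjusted over 4 ratios p = 0.511).

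Foxo1 and Foxo3 encode the transcription factors that AKT restrains, and FOXO1 drives glucose production in the fasted liver. Foxo1 (chromosome 3, 52268336 to 52353221, plus strand) was at 95.1, 113, 48.3, 80.2, 108 and 75.1 CPM in control livers 1 to 6 and at 101, 74.5, 90.7, 103, 106 and 85.1 CPM in DCHP livers 1 to 6. Foxo3 (chromosome 10, 42181841 to 42276755, minus strand) was at 103, 111, 61.0, 103, 109 and 87.4 CPM in control livers 1 to 6 and at 128, 80.5, 93.1, 105, 122 and 87.5 CPM in DCHP livers 1 to 6. Control 3 was the lowest of the 12 livers in both genes, and the groups overlapped in both. The log2 fold change was 0.11 ± 0.17 for Foxo1 (SE, edgeR adjusted p = 0.750) and 0.10 ± 0.15 for Foxo3 (adjusted p = 0.743). Without control 3 the log2 fold change fell to -0.01 for Foxo1 and 0.00014 for Foxo3.

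Foxo1 and Foxo3 varied together from liver to liver. Over the 12 livers their log2 CPM had r = 0.91 (permutation p = 0.00018, adjusted over 36 pairs p = 0.00648) and rho = 0.87 (permutation p = 0.00054, adjusted p = 0.0194). The relation held in control livers (r = 0.96, n = 6, exact permutation p = 0.00278) and in DCHP livers (r = 0.90, n = 6, exact permutation p = 0.0208), and r was 0.72 without control 3 and DCHP 2. The 2 values of a liver share a library and its scaling. Their log2 ratio was -0.17 ± 0.16 in control and -0.13 ± 0.13 in DCHP livers (mean ± SD, n = 6 per group, exact two-sided permutation p = 0.604). This was the one pair of the 36 pairs of core genes whose adjusted p was under 0.05. Insr and Irs1 came next (r = 0.76 over 12 livers, permutation p = 0.00607, adjusted p = 0.109; rho = 0.80, adjusted p = 0.0513). Their r was 0.93 in DCHP livers (n = 6, exact permutation p = 0.00417) and 0.11 in control livers (n = 6, exact permutation p = 0.806), a difference that was not tested, and 0.62 over the 12 livers without control 3 and DCHP 5.

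**Figure D3:**
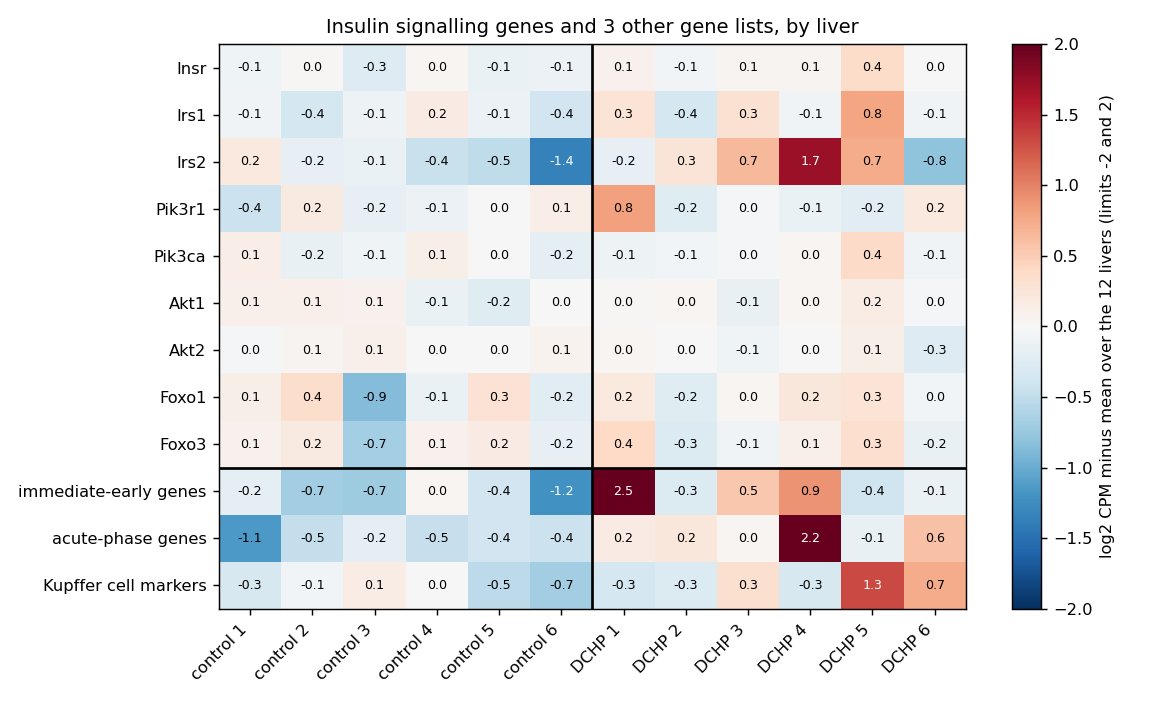
Log2 CPM of the 9 core genes in each liver minus the gene's mean over the 12 livers (upper rows), and the mean of the same quantity over 3 other gene lists (lower rows), with colours cut at -2 and 2 and values printed in the cells. DCHP 4 is highest in Irs2 and in the acute-phase list (2.23), DCHP 1 in Pik3r1 and the immediate-early list (2.49), and DCHP 5 in Insr, Irs1 and Pik3ca and in the Kupffer cell list (1.32), while control 3 is lowest in Foxo1 and Foxo3.

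Per kilobase of exon, the order of levels in control livers was Akt2 (17.0 CPM per kb), Akt1 (13.5), Insr (12.7), Foxo3 (12.6), Pik3r1 (10.8), Foxo1 (9.99), Pik3ca (4.44), Irs2 (3.57) and Irs1 (2.03). Of neighbours in this order, only Akt2 and Akt1, and Foxo1 and Pik3ca, had ranges over the 6 livers that did not overlap. In DCHP livers the means of Insr and Akt1 and those of Irs2 and Pik3ca changed places, and only the ranges of Pik3ca (4.62 CPM per kb) and Irs1 (2.55) did not overlap. The adaptor genes were thus among the lowest of the pathway per length in both groups, with Irs2 above Irs1 in every liver of either group. Exonic length here joins all annotated exons of a gene and is not that of the expressed transcript.

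Core genes also differed in how much they varied between livers. After Irs2, the SD of log2 CPM within groups stood at the 91.8th percentile of genes of like level for Foxo1, 91.1 for Pik3r1, 90.1 for Irs1 and 88.9 for Foxo3, whereas it stood at 48.4 for Pik3ca, 34.0 for Insr, 31.0 for Akt1 and 15.9 for Akt2. The kinases and the receptor were the steadier genes, and the adaptors, the regulatory subunit and the transcription factors the more variable. Among 11434 tested genes with a mean level of 1 CPM or more, the patterns most like those of the core genes, after centring each group over the 12 livers, were Prrc2c and Psme4 for Insr (r = 0.98 and 0.96), Vmn2r114 and Zfp780b for Irs1 (0.92 and 0.90), Med12l and Ppp2r5b for Irs2 (0.90 and 0.90), and Med20 and Ttc19 for Pik3r1 (0.90 and 0.86). For the others they were Pkn2 and Cnot6l for Pik3ca (0.96 and 0.93), Ggps1 and Zfp738 for Akt1 (0.91 and 0.89), Abcb11 and Nop14 for Akt2 (0.93 and 0.93), Lrrc8a and Mapk14 for Foxo1 (0.92 and 0.91), and Ttll8 and Clptm1l for Foxo3 (0.89 and 0.89). These are the highest of many values and carry no test.

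**Figure D4:**
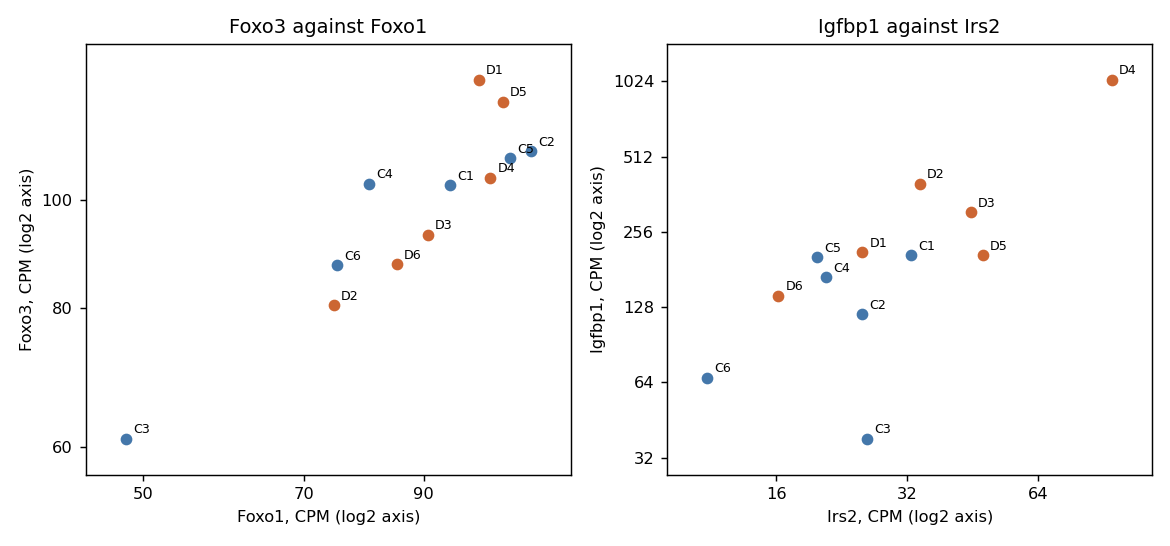
CPM of Foxo3 against Foxo1 (left) and of Igfbp1 against Irs2 (right) in each liver, on log2 axes, with paternal control livers in blue (C1 to C6) and paternal DCHP livers in orange (D1 to D6). Foxo1 and Foxo3 lie along 1 line in both groups (r = 0.91 over 12 livers), and DCHP 4 is highest in both Irs2 (94.8 CPM) and Igfbp1 (1039 CPM).

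Relatives of the core genes along the pathway showed few differences. Of 11 tested receptor and adaptor relatives (of 13), 9 had positive log2 fold changes, 0 were called by edgeR, DESeq2 or limma-voom and 2 had an unadjusted p under 0.05, among them Gab2, an adaptor gene of the same wider family (0.53 ± 0.22, SE, edgeR adjusted p = 0.220, and called without DCHP 1 and DCHP 4). Of 8 PI3K relatives 7 were positive and 0 were called by any of these tools. Pik3c2a, which encodes a class II PI3K, went from a mean of 43.2 to 63.2 CPM (n = 6 each), and its log2 fold change of 0.55 ± 0.15 (SE, edgeR adjusted p = 0.0917) stayed under the fold threshold, which it passed without control 2 or without DCHP 6. It was the 1 gene of this list with an unadjusted p under 0.05. Of 20 AKT and downstream kinase genes 13 were positive, 0 were called by any of these tools and 3 had an unadjusted p under 0.05, all positive and at most 0.24, with Gsk3b, the gene of a kinase that AKT inhibits, at 0.20 ± 0.07 (SE, edgeR adjusted p = 0.147). Of 9 tested FOXO relatives and partners (of 10) 5 were positive, 0 were called by any of these tools, and 1 had an unadjusted p under 0.05, Foxo4 (-0.13 ± 0.06, SE, edgeR adjusted p = 0.236). In each of these lists the share at an unadjusted p under 0.05 was below the 18.9% of all tested genes. The length and GC trend was fitted on deviations that include the group difference. A technical trend and a difference shared by long genes thus cannot be told apart. The counts of directions above differed without this trend. With it removed, positive values numbered 6 of 11 receptor and adaptor relatives, 4 of 8 PI3K relatives, 6 of 20 AKT and downstream kinase genes (median -0.04, against 0.03 before) and 2 of 9 FOXO relatives, and Gsk3b was at 0.08.

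Among 28 genes that restrain insulin signalling, 20 had positive log2 fold changes, with a median of 0.08. EdgeR called 1 of the 28, against 1.28% of all tested genes. An unadjusted edgeR p under 0.05 was reached by 5 positive and 3 negative genes of the 28, against 18.9% of all tested genes. With the length and GC trend removed 13 of the 28 were positive and 15 negative, with a median of -0.04. The called gene was Socs3, whose protein binds the receptor and promotes loss of IRS proteins and is also a feedback inhibitor of cytokine signals. Socs3 was at 4.58, 9.38, 4.09, 4.77, 6.57 and 3.48 CPM in control livers 1 to 6 and at 22.3, 8.80, 5.85, 35.0, 15.9 and 7.85 CPM in DCHP livers 1 to 6. DCHP 1, 4 and 5 lay above every control liver and the other 3 within the control range. Its log2 fold change was 1.54 ± 0.40 (SE, edgeR adjusted p = 0.0807). The call was lost with limma-voom, with the replicate number as a block (1.34, edgeR adjusted p = 0.151), without any 1 of controls 1, 3, 4, 5 and 6, without any 1 of DCHP 1, 4 and 5, and without DCHP 1 and DCHP 4 together (0.81, edgeR adjusted p = 0.190). DCHP 1 and DCHP 4, highest in Socs3, were also those highest in the immediate-early and acute-phase sums, and the part of these in the Socs3 result was not tested.

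Grb10, whose product binds and inhibits the receptor, went from 2.78 ± 0.55 to 4.40 ± 1.53 CPM (SD, n = 6 each). Its log2 fold change of 0.66 ± 0.22 (SE) was not called by edgeR (adjusted p = 0.137). DESeq2 called it (adjusted p = 0.0655), as did edgeR without DCHP 6 (adjusted p = 0.0847). Both of these settings called more of all tested genes than the main fit. DCHP 4 held the highest Grb10 (7.15 CPM), and without DCHP 1 and DCHP 4 the log2 fold change was 0.42 (edgeR adjusted p = 0.286). Without regard to fold, Enpp1, the gene of an ectoenzyme that can block the receptor, was the 1 other inhibitor gene with an adjusted p under 0.1 (log2 fold change -0.27 ± 0.08, SE, edgeR adjusted p = 0.0897), a gene named after its value was seen.

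The transcriptional output of the pathway was followed in 24 genes known as FOXO1 targets or lowered by insulin in liver and in 15 genes raised by insulin. Of the 24, 17 had positive log2 fold changes, with a median of 0.18, and of the 15, 11 had negative ones, with a median of -0.24, against a median of 0.01 over all tested genes. EdgeR called 0 genes in either list. DESeq2, which called more of all tested genes than edgeR, called 2 of the 24 and 0 of the 15. Limma-voom called 0 of either. An unadjusted p under 0.05 was reached by 5 of the 24, all positive, and by 2 of the 15, both negative, shares near or below the 18.9% of all tested genes. Over the 21 alternatives the number of positive values was 16 to 18 of the 24, and 1 to 6 of the 14 or 15 tested. In the list raised by insulin the 1 of 15 came without DCHP 3, with a median of -0.43. That list had a median of -0.14 without DCHP 2 (4 of 15 positive) and of -0.17 without control 6 (5 of 15 positive).

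Igfbp1, which encodes a binding protein of insulin-like growth factors, was at 206, 120.0, 38.0, 168, 203 and 66.9 CPM in control livers 1 to 6 and at 213, 398, 307, 1039, 207 and 142 CPM in DCHP livers 1 to 6. All DCHP livers but DCHP 6 lay above every control liver. Igfbp1 had a log2 fold change of 1.52 ± 0.49 (SE, edgeR adjusted p = 0.129, DESeq2 adjusted p = 0.0812). It was 0.93 without DCHP 4 and 1.70 without DCHP 6, where edgeR called Igfbp1 (adjusted p = 0.0883). That setting and DESeq2 each called more of all tested genes than the main fit. DCHP 4 was the highest liver in Igfbp1, Irs2 and Socs3 alike. Pdk4, the gene of a kinase that restrains pyruvate oxidation in fasting, went from 6.69 ± 2.81 to 16.0 ± 8.33 CPM (SD, n = 6 each), a log2 fold change of 1.26 ± 0.40 (SE, edgeR adjusted p = 0.126, DESeq2 adjusted p = 0.0819), and edgeR called it without DCHP 1 (adjusted p = 0.0575).

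The genes of the gluconeogenic enzymes had smaller differences. G6pc, which encodes the enzyme that releases free glucose, was between 358 and 579 CPM in control livers and between 406 and 629 CPM in DCHP livers (log2 fold change 0.12 ± 0.16, SE, edgeR adjusted p = 0.695). Pck1, which encodes phosphoenolpyruvate carboxykinase, was at 3398 ± 687 and 3860 ± 465 CPM (SD, n = 6 each, log2 fold change 0.18, edgeR adjusted p = 0.463). The groups overlapped in both.

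Of the genes raised by insulin, Srebf1, whose SREBP-1c product drives lipid synthesis, was at 727, 457, 849.7, 741, 630.4 and 616 CPM in control livers 1 to 6 and at 573, 270.1, 811, 374, 228 and 448 CPM in DCHP livers 1 to 6. DCHP livers 2, 4, 5 and 6 lay below every control liver, and DCHP 1 and DCHP 3 within the control range. Srebf1 had a log2 fold change of -0.57 ± 0.26 (SE, edgeR adjusted p = 0.254). Without DCHP 3 it was -0.82 and passed both thresholds (edgeR adjusted p = 0.0895), and without DCHP 5 it was -0.44. The unadjusted p of Srebf1 was under 0.05 in 10 of the 21 alternatives. Insig1, which encodes an anchor of the SREBP system, had the smallest p of the list. Its log2 fold change was -0.55 ± 0.20 (SE, edgeR adjusted p = 0.162). It was called without control 2, and the log2 fold change was -0.41 without DCHP 1 and DCHP 4.

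**Figure D5:**
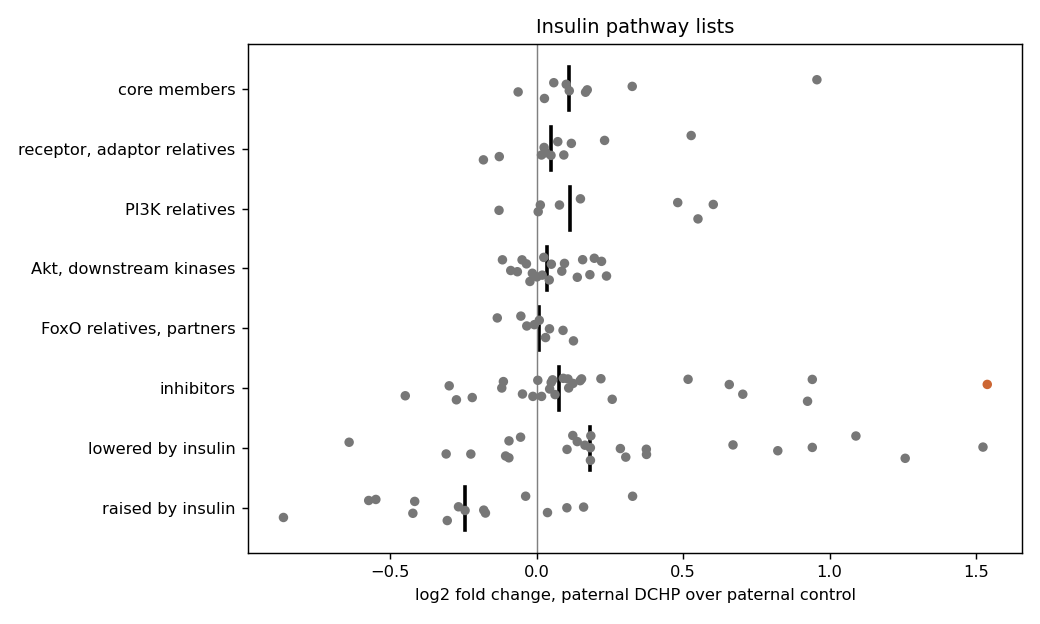
Log2 fold change, paternal DCHP over paternal control, of every tested gene of the core and of 7 lists of pathway genes, 1 point per gene with the median of each list as a black bar and vertical scatter for legibility only. The 1 gene called by edgeR is in orange (Socs3, 1.54), and the medians of the genes lowered and raised by insulin lie at 0.18 and -0.24.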

How the data were processed

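Total RNA from 12 F1 male livers, 6 per group, was sequenced. Estimated counts by gene symbol were deposited in 1 table, made by the authors on the mm10 build per the labels, and 43.6% of its values are not whole. Which aligner, counting program, annotation and strand setting were used was not given in the sources used here, so reads from an overlapping antisense gene cannot be told apart. Groups and replicate numbers came from the sample titles.

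The deposited counts were rounded, filtered with filterByExpr (minimum count 10) and scaled with TMM in edgeR (version 4.0.16, R version 4.3.3). All 12 libraries entered a quasi-likelihood test without covariates, and calls needed an adjusted p (Benjamini-Hochberg) under 0.1 and a fold change above 1.5, the study's thresholds. CPM use TMM library sizes, and log2 CPM a prior count of 2. Standard errors were derived from the F statistic of each gene. The test was checked on simulated counts. Ratios within a library (each count plus 0.5) were compared by exact permutation over 924 assignments, and pairs of core genes by permutation with 100000 resamples. The core genes and lists were chosen with earlier results of these data known. Named genes are the core genes, up to 4 called genes of each pathway list or otherwise the one with the smallest p, the 2 genes most like each core gene, and G6pc, Pck1, Igfbp1, Srebf1, Socs3 and Grb10. Some genes that this rule names are not reported here. Positions, exon counts and lengths come from GENCODE (GRCm38) and promoters from RefSeq. Libraries of a group all differed beyond counting noise (lowest chi-square per degree of freedom of a pair 17.4).

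Alternatives tried were upper-quartile and RLE factors, no filter, at least 1 CPM in 6 libraries, DESeq2 (version 1.42.0), limma-voom (limma version 3.58.1), the replicate number as a block, removal of the length and GC trend, each library left out in turn, and DCHP 1 and DCHP 4 left out together. For the lists and single pathway genes they were added after seeing the data.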

Additional observations from a re-analysis of the deposited data

Results flagged for a closer look

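Single livers stood far from the rest of their group in 3 of 26 group measurements examined (9 genes and 4 ratios in 2 groups), where about 1 in 20 is flagged by chance. DCHP 5 was high in Insr, with a gap to the nearest liver of 0.664 of the group's range on the log2 scale, and in Pik3ca, with a gap of 0.713. This liver also had the highest Kupffer and erythroid marker sums and mitochondrial share. DCHP 6 was high in the ratio of Akt1 to Akt2, with a gap of 0.658. Without DCHP 5 the log2 fold changes of 3 core genes were negative and 6 positive.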

How the results depend on the processing

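The number of genes called among all tested was 159, and was 326 with DESeq2 (243 higher and 83 lower), 103 with the length and GC trend removed (67 higher and 36 lower) and 59 with the replicate number as a block (42 higher and 17 lower). Leaving out each library in turn gave 7 calls (without control 3) to 233 (without DCHP 6). Whether equal replicate numbers mark animals handled together is not given. Deviations of same-numbered livers had correlations from -0.12 to 0.17 across genes, which cannot settle it. The block changed no call of a core gene but ended that of Socs3. The number of core genes called was 0 to 1 over the libraries left out and 0 under the other alternatives, including an adjusted p under 0.05 and no fold threshold. The number of core genes with positive log2 fold changes was 6 to 8 over all alternatives. The 4 ratios kept their side of the threshold under 15 alternatives each. Counting depth was ample for all 9 core genes, and the spread between 6 livers per group limits precision.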
